A study of Mus musculus with 4 samples.

Results

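The VEGF and angiopoietin genes considered here are 10 genes of vessel signalling, *Vegfa*, *Vegfb*, *Vegfc*, *Flt1*, *Kdr*, *Flt4*, *Nrp1*, *Angpt1*, *Angpt2* and *Tek*. They were found by name among the 22483 named loci of the deposited RNA-Seq table, and each of the 10 names had 1 row. Poly(A) RNA came from the mammary gland of virgin mice aged 2 months, 2 miR-21+/+ (WT) and 2 miR-21-/- (KO). All 4 mice shared the mixed background 129SV::FVB/N::C57BL/6, and the knockout mice lacked miR-21 in the whole animal. Expression is given as FPKM, a count of fragments scaled to transcript length and to the fragments mapped in the library, which is a level per length and so can be compared between genes. The authors' table gives each genotype 1 FPKM value for both mice together. It shows no spread between mice, and the depth of the libraries is unknown. Every difference below compares 2 such values, without a replicate check and without a test.

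VEGF proteins are secreted growth factors that bind receptor tyrosine kinases on endothelial cells. VEGFA binds FLT1 and KDR, of which KDR carries most of the growth signal of blood vessels, while VEGFC acts through FLT4 on lymphatic vessels. Angiopoietins act on TEK, also called Tie2, a receptor of endothelial cells: ANGPT1, made largely by cells around the vessel, activates it and steadies the vessel wall, and ANGPT2, released by endothelial cells, can oppose it. In the mammary gland the capillary bed lies in a fat pad rich in adipocytes and grows with the epithelium in pregnancy. MiR-21 is a microRNA, which lowers messenger RNAs that pair with its seed, bases 2 to 8, mostly in their 3′ UTR.

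The sequence absent from the knockout mice is shown first, because it defines which of the 10 messenger RNAs carry a match. In the mature miR-21 of 22 nt (RefSeq entry on GRCm38.p6), written 5′ to 3′, capitals mark the seed.
mmu-miR-21a-5p: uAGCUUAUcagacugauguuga
A match was sought on the transcript strand of the annotated 3′ UTRs (mm9, GENCODE vM1). An 8mer reads ATAAGCTA, a 7mer-m8 reads ATAAGCT, a 7mer-A1 reads TAAGCTA and a 6mer reads TAAGCT, the longer forms containing the 6mer. In the 13029 genes that exceeded 1 FPKM and have a 3′ UTR in that annotation, 6.98% had an 8mer or 7mer-m8 in the longest one, 11.2% had an 8mer or a 7mer of either kind, and 24.3% had any match with the 6mer included. The median length of these 3′ UTRs was 1138 nt. Of the 10 vessel genes, *Flt1* held an 8mer, *Vegfc* a 7mer-m8 and *Nrp1* a pair of 6mers, and the other 7 genes had no match in any 3′ UTR searched. The windows that hold these matches are printed here so that they can be set beside the levels of their genes, with the match in capitals.
Flt1 8mer: aagactaatgATAAGCTAtgaga
Flt1 6mer, first: gtcccagggcTAAGCTtgtct
Flt1 6mer, second: taaccattccTAAGCTgccct
Vegfc 7mer-m8: aaattgtattATAAGCT
Nrp1 6mer, first: gctttcactgTAAGCTgggaa
Nrp1 6mer, second: gctttcactgTAAGCTcggaa
The *Flt1* 8mer window lies at chr5:148447461-148447483 on the minus strand. All 3 *Flt1* matches belong to a transcript of 13 exons, whose 3′ UTR of 3971 nt spans chr5:148446735-148450705, inside the span of the longer transcript. The 3′ UTR of the transcript with 30 exons (2616 nt, chr5:148373180-148375795) held no match, nor did that of the remaining coding transcript, which has 12 exons (100 nt). A shortened FLT1 that lacks the part crossing the membrane is known to be secreted and to trap VEGF. The deposited table gives 1 value for *Flt1* and does not separate its transcripts. The *Vegfc* match, in the window chr8:55271792-55271808 on the plus strand, ends on the last base of the annotated transcript, with 0 bases after it. The base that would tell an 8mer from a 7mer-m8 there was therefore not read. The *Nrp1* windows, chr8:131026789-131026809 and chr8:131026831-131026851 on the plus strand, begin with the same 10 bases.

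The targeted locus was looked at before the vessel genes. The table lists *Mir21* and its host gene *Vmp1* as a single locus, at 42.5 FPKM in WT and 68.2 FPKM in KO. Poly(A) RNA reports this host transcript, which leaves the absence of the mature microRNA unchecked. The 2 FPKM columns summed to 759295 in WT and 1175603 in KO over all 30506 loci, but to 380567 and 355385 over named loci. The higher KO sum over all loci thus came from the 8023 loci without a name. The values were used as deposited, on which scale the median log2 ratio of KO over WT was -0.03 over the 9714 named loci above 5 FPKM in at least 1 genotype. Markers of other cell types also differed between the genotypes. The B cell and lymph node list was lower in KO for 6 of 6 genes (summed FPKM 233 in WT, 57.3 in KO). Most of the KO sum came from the row of *Cd79a*, which also carries the name *Arhgef1* and held 70.3 FPKM in WT and 48.3 FPKM in KO. *Glycam1*, counted here as a gene of lymph node venules, went from 136 to 4.63 FPKM and held most of the WT sum. Which cells its reads came from was not tested. The mammary epithelial list was higher in KO for 6 of 6 genes (summed FPKM 408 and 614) and so was the skeletal muscle list (1023 and 1690). The adipocyte list was lower for 5 of 6 genes (10643 and 7817). The part of these tissue differences in the values below was not tested, and in bulk tissue fewer cells of a type and less RNA per cell cannot be told apart.

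The vessel genes were close in level in both genotypes, about as close as named loci in general. None of the 10 genes was 25% or more higher in KO or 20% or more lower, limits that mark the same fold in both directions, on the scale of the deposited values. With both columns scaled to equal sums over named loci, or centred on the median of named loci, *Angpt1* was at least 25% higher, and with equal sums over all loci 9 of the 10 were at least 20% lower, as were 91.1% of the named loci above 5 FPKM. Unscaled, their log2 ratios of KO over WT ran from -0.27 for *Vegfa* to 0.32 for *Angpt1*, with a median of -0.08. Among the named loci above 5 FPKM, 8.48% were at least 25% higher and 11.3% at least 20% lower in KO. Of the 10 genes, 7 exceeded 5 FPKM in both genotypes and the other 3, *Vegfc*, *Flt4* and *Angpt1*, were below 5 FPKM in both. All 10 were above 1 FPKM, a limit at which 11.1% of 13565 named loci were at least 25% higher and 14.4% at least 20% lower. At 1.5-fold, 0 of the 10 genes passed in either direction, a count near the shares of all named loci. Those shares were 3.85% higher and 4.33% lower above 5 FPKM, and 5.53% and 6.37% above 1 FPKM. A smaller limit of 1.2-fold, chosen after the values were seen, was passed upward by *Angpt1* and downward by *Vegfa*, while 10.6% of named loci above 5 FPKM passed it upward and 14.6% downward. The median size of the log2 ratio, its sign left aside, was 0.16 for the 10 genes and 0.15 for all named loci above 1 FPKM. On the deposited scale 6 of the 10 were lower in KO, as were 55.7% of the named loci above 1 FPKM. With both columns scaled to equal sums over named loci, 5 of the 10 were lower, against 35.9% of those loci. All 10 were lower when the columns were scaled to equal sums over all loci. The order of the 10 levels, from *Vegfa* at the top to *Flt4* at the bottom, was the same in both genotypes.

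**Figure D1:**
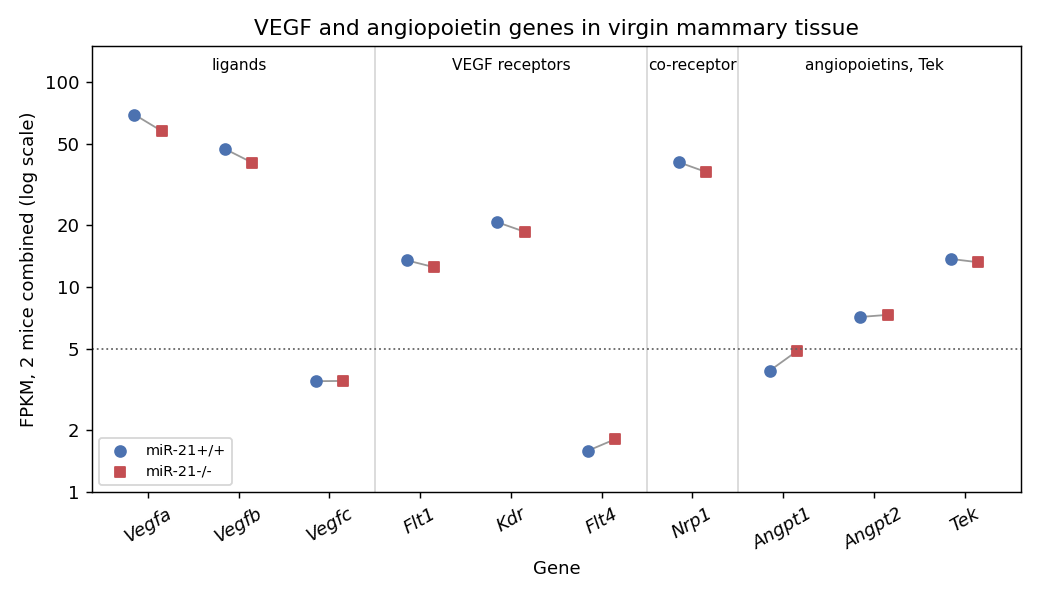
FPKM of the 10 genes (vertical axis, log scale) in miR-21+/+ (circles) and miR-21-/- (squares) mammary tissue, each point the authors' value for 2 mice combined, with the dotted line at 5 FPKM. Both points of each gene lie close together, and the levels run from 69.4 FPKM for *Vegfa* to 1.59 FPKM for *Flt4* in miR-21+/+ tissue.

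Among the ligands, *Vegfa*, the main growth signal for blood vessels, had the highest level of the set. Its level was 69.4 FPKM in WT and 57.7 FPKM in KO, 16.9% lower and a log2 ratio of -0.27. Of the named loci above 5 FPKM, 24.7% had a log2 ratio at least that far from 0. The table marks the statistical test of the *Vegfa* locus as failed, a mark carried by 10.4% of the named loci above 5 FPKM, so its FPKM values are given with that reservation. The gene lies at chr17:46153942-46169326 on the minus strand of mm9 and has 14 annotated transcripts, which the table does not separate; forms of VEGFA are known to differ in how they bind matrix. *Vegfb*, a ligand of FLT1 known for its expression in tissues that burn or store fat (chr19:7056963-7062141, minus strand), was at 47.1 FPKM in WT and 40.4 FPKM in KO, a log2 ratio of -0.22. The 2 genes thus had ratios of the same sign and like size, and *Vegfa* stood 1.47 times above *Vegfb* in WT and 1.43 times above it in KO. The summed level of the adipocyte markers was also lower in KO, and a link with these lower values was not tested. Set against that sum, to which *Fabp4* contributes most, *Vegfa* was 0.652% in WT and 0.738% in KO and *Vegfb* 0.443% and 0.516%, but taken marker by marker both genes were higher in KO relative to 3 of the 6 adipocyte markers and lower relative to the other 3, *Plin1*, *Lipe* and *Lep*.

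*Vegfc*, the growth factor of lymphatic vessels (chr8:55162886-55271808, plus strand), was at 3.47 FPKM in WT and 3.48 FPKM in KO. Its log2 ratio of 0.01 was the one nearest to 0 of the 10, and 97.8% of named loci above 1 FPKM had a ratio at least as far from 0. *Vegfc* is also the gene with the 7mer-m8 match shown above. *Vegfa* was 20 times as abundant as *Vegfc* in WT and 16.6 times in KO.

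The receptors *Kdr* and *Flt1* were both slightly lower in KO. *Kdr* (VEGFR2, chr5:76328852-76374483, minus strand) was at 20.7 FPKM in WT and 18.6 FPKM in KO, a log2 ratio of -0.16. *Flt1* (VEGFR1, chr5:148373180-148537587, minus strand), a high-affinity receptor that holds VEGFA away from KDR, was at 13.5 and 12.5 FPKM, a log2 ratio of -0.11. For *Flt1*, 54.7% of named loci above 5 FPKM had a ratio at least as far from 0, and for *Kdr* 41.9%. *Flt1* is the gene with the 8mer match, but that match lies in the transcript of 13 exons alone and the 2 values combine all *Flt1* transcripts. *Kdr* was 1.54 times as abundant as *Flt1* in WT and 1.49 times in KO, and the *Vegfa* level stood 3.35 times above *Kdr* in WT and 3.10 times above it in KO.

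*Flt4* (VEGFR3, chr11:49422765-49466241, plus strand), the receptor for VEGFC on lymphatic endothelium, had the lowest level of the 10. It was at 1.59 FPKM in WT and 1.81 FPKM in KO, a log2 ratio of 0.19. Both values are low, and 40.7% of the named loci above 1 FPKM had a ratio at least as far from 0. Of 6 lymphatic markers listed, 3 were above 1 FPKM and each of these was higher in KO. *Lyve1*, a hyaluronan receptor also found on some macrophages, was at 19.6 FPKM in WT and 42.7 FPKM in KO. *Reln* was at 2.74 and 4.86 FPKM and *Pdpn* at 8.49 and 10.9 FPKM, both of them genes that cells other than lymphatic endothelium also express. *Prox1*, the transcription factor that defines lymphatic endothelium, was at 0.195 and 0.139 FPKM and *Mmrn1* at 0.604 and 0.480 FPKM, so both were below 1 FPKM in both genotypes. *Ccl21a* was not found by that name. The part of these cells in the *Flt4* value was not tested.

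*Nrp1*, a co-receptor that strengthens VEGFA binding to KDR and also binds semaphorins, was the third most abundant gene. Its row also carries the name *Mir1903*, a microRNA gene inside it (chr8:130882973-131029362, plus strand), and reads of both are counted together. The level was 40.6 FPKM in WT and 36.4 FPKM in KO, a log2 ratio of -0.16. The ratio of *Nrp1* to *Kdr* was 1.96 in both genotypes, the steadiest of the ratios computed among these genes. The level of its relative *Nrp2*, found more on veins and lymphatic vessels, was 7.68 FPKM in WT and 8.06 FPKM in KO.

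**Figure D2:**
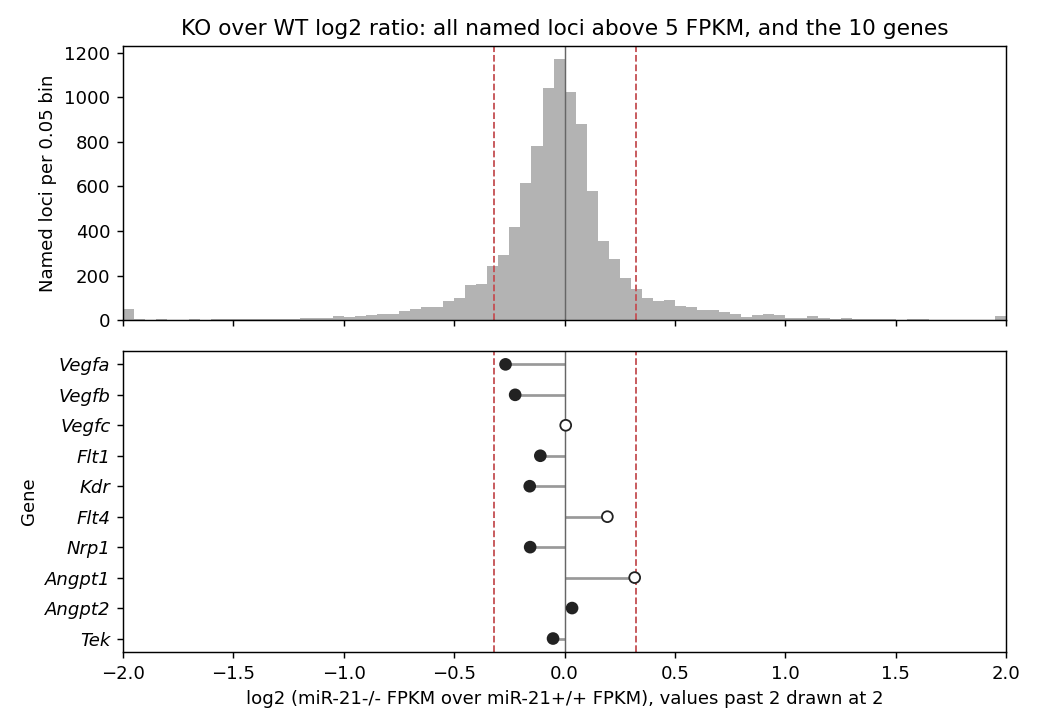
The upper panel counts named loci above 5 FPKM by their log2 ratio of KO over WT, and the lower panel shows the same ratio for each of the 10 genes, filled where the gene exceeded 5 FPKM and open where it did not. Dashed lines mark 25% higher and 20% lower, and all 10 genes lie between them, from -0.27 for *Vegfa* to 0.32 for *Angpt1*, whose point touches the line.

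The angiopoietin genes differed from each other in how far they lay apart between genotypes. *Angpt1*, the activating ligand of TEK (chr15:42256273-42508523, minus strand), was at 3.90 FPKM in WT and 4.86 FPKM in KO. This was 24.6% higher, just under the limit of 25%, with a log2 ratio of 0.32 that was the highest of the 10. Of named loci above 1 FPKM, 25.8% had a ratio at least as far from 0. Pericytes and other mural cells make much of the ANGPT1 of a vessel. Of 7 markers of these cells, 5 were lower and 2 higher in KO, while 55.7% of named loci above 1 FPKM were lower. The summed levels of the markers were 181 FPKM in WT and 180 FPKM in KO. *Angpt1* was 2.16% of that sum in WT and 2.70% in KO. An annotated lincRNA, *Gm17473*, overlaps the start of *Angpt1* on the opposite strand, and reads of such a pair cannot be told apart without strand.

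*Angpt2*, which endothelial cells release to loosen vessels, was at 7.14 FPKM in WT and 7.31 FPKM in KO, a log2 ratio of 0.03. The gene (chr8:18690263-18741562, minus strand) lies within *Mcph1* (chr8:18595131-18803189, plus strand), a gene of chromosome condensation. The table gives both names the same locus in separate rows, and *Mcph1* was at 4.23 FPKM in WT and 3.07 FPKM in KO, a log2 ratio of -0.46. The *Angpt2* value is therefore uncertain to the extent that reads of the antisense pair were split between these rows. *Angpt2* stood 1.83 times above *Angpt1* in WT and 1.5 times above it in KO, a log2 difference of -0.28 that does not depend on how the columns are scaled.

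*Tek*, their receptor (chr4:94405980-94541667, plus strand), was at 13.7 FPKM in WT and 13.2 FPKM in KO. Its log2 ratio was -0.05 on the deposited scale, and it turned to a value above 0 with both columns scaled to equal sums over named loci. *Tie1*, the related receptor that pairs with TEK on the cell surface, was at 12.5 FPKM in WT and 16 FPKM in KO, a log2 ratio of 0.36. The ratio of *Tek* to *Tie1* was accordingly 1.09 in WT and 0.822 in KO. *Ptprb*, the phosphatase that restrains TEK, was at 15.4 and 14.1 FPKM.

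The receptors were also set against the endothelial cells that carry them, since a ratio within a genotype is free of the scaling between columns. The summed level of 14 endothelial markers was 322 FPKM in WT and 350 FPKM in KO. Of the 14, 11 were higher and 3 lower in KO on the deposited scale, where 55.7% of named loci above 1 FPKM were lower. Their median log2 ratio was 0.11, with a range from -0.45 for *Sox17* to 0.51 for *Cldn5*. Scaling both columns to equal sums over all loci, unnamed loci included, lowers every log2 ratio by 0.63, which would put all 14 below 0. *Cdh5*, the adhesion molecule that joins endothelial cells, was at 43.8 FPKM in WT and 47.3 FPKM in KO, and *Pecam1* was at 39.7 and 43.7 FPKM. The table marks the test as failed for 3 of the 14, *Pecam1*, *Egfl7* and *Erg*. *Kdr* was 6.45% of the sum in WT and 5.31% in KO, a log2 difference of -0.28. *Flt1* was 4.20% and 3.58%, a difference of -0.23, and *Tek* was 4.24% and 3.76%, a difference of -0.17. *Flt4* was 0.493% and 0.518%, a difference of 0.07. *Nrp1*, which cells other than endothelium also express, was 12.6% and 10.4%. So *Kdr*, *Flt1* and *Tek* were lower in KO relative to the sum of these markers, and *Flt4*, low in FPKM, differed little. Taken marker by marker, *Kdr* and *Flt1* were higher relative to *Eng* and *Sox17* and lower relative to the others. *Tek* was higher relative to *Eng*, *Sox17* and *Robo4*. *Flt4* was lower relative to *Tie1*, *Icam2* and *Cldn5* and higher relative to the others.

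**Figure D3:**
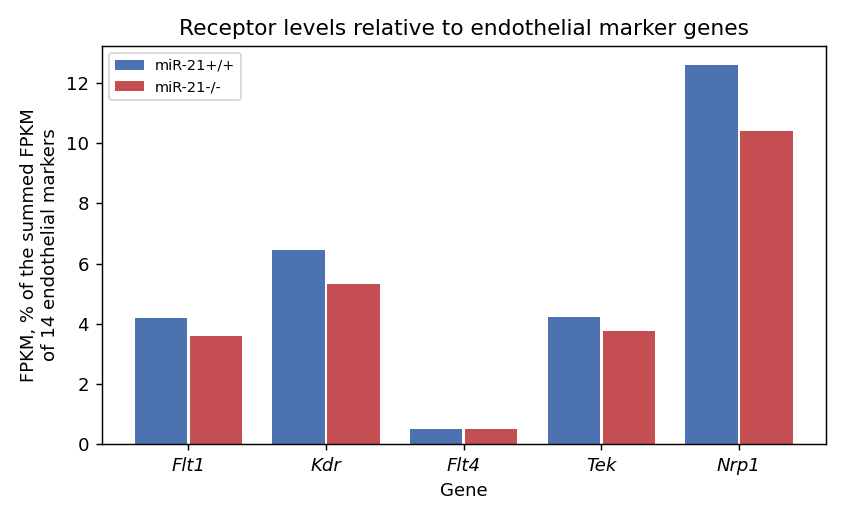
FPKM of 4 receptors and of the co-receptor *Nrp1* as a percentage of the summed FPKM of 14 endothelial marker genes, in miR-21+/+ and miR-21-/- tissue (1 combined value of 2 mice per bar, so no error bars). *Kdr*, *Flt1*, *Tek* and *Nrp1* have the lower bar in miR-21-/- tissue, with *Kdr* at 6.45% and 5.31%.

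Other genes of the same pathways were described from 6 lists, counting genes above 1 FPKM. Among all 13565 named loci at that level, 5.53% were at least 1.5-fold higher and 6.37% at least 1.5-fold lower in KO, and the median log2 ratio was -0.03. Scaling both columns to equal sums over all loci would lower every log2 ratio here, and that median, by the same 0.63, so the lists are read beside that median. Of the other ligands and receptors, 7 of 8 were above 1 FPKM, 1 was at least 1.5-fold higher and 1 at least 1.5-fold lower, and the median log2 ratio was 0.06. *Pgf*, placental growth factor and a ligand of FLT1, was at 2.26 FPKM in WT and 4.12 FPKM in KO. *Ccbe1*, a matrix protein needed to activate VEGFC, was at 3.92 and 1.53 FPKM. *Figf*, the gene of VEGFD, was at 15.1 and 14.7 FPKM, above *Vegfc* in both genotypes.

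For genes of the signal inside the cell the counts at 1.5-fold were near those shares of all named loci. Of 15 genes of VEGF receptor signalling, 1 was at least 1.5-fold higher and 1 at least 1.5-fold lower, with a median log2 ratio of 0.04. *Hspb1*, a small heat shock protein that is phosphorylated downstream of KDR and abundant in muscle, was at 44.4 FPKM in WT and 80.0 FPKM in KO. *Sh2d2a*, an adaptor that binds KDR and is also known from T cells, was at 1.28 and 0.292 FPKM. *Akt1*, the most abundant of the list in WT, was at 52.9 and 51.1 FPKM. Of 9 genes of TEK signalling, 0 passed 1.5-fold in either direction, and the median log2 ratio was 0.08. The most abundant by the mean of both genotypes was *Pik3r1*, a regulatory subunit of PI3 kinase, at 37.3 and 52.9 FPKM, and the table marks its test as failed. *Foxo1*, the transcription factor that TEK signalling holds out of the nucleus and that drives *Angpt2*, was at 22.7 FPKM in WT and 18.8 FPKM in KO.

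Of 12 tip cell and VEGF-responsive genes above 1 FPKM, a list that shares *Angpt2* with the 10 genes and *Pgf* with the list of ligands, 4 were at least 1.5-fold higher and 0 at least 1.5-fold lower in KO. Of all named loci above 1 FPKM, 5.53% were at least 1.5-fold higher and 6.37% at least 1.5-fold lower. The median log2 ratio of the list was 0.26. Besides *Pgf*, the 4 higher genes were *Apln* at 1.92 FPKM in WT and 4.63 FPKM in KO, its receptor *Aplnr* at 7.42 and 13.8 FPKM, and the Notch ligand *Dll4* at 2.47 and 3.90 FPKM. *Rcan1*, a calcineurin inhibitor induced by VEGF and the most abundant of the list in WT, was lower, at 14 and 10.5 FPKM.

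Of 16 oxygen sensing and hypoxia genes above 1 FPKM, 13 were lower in KO on the deposited scale and 7 with both columns scaled to equal sums over named loci. The shares of all named loci above 1 FPKM that were lower were 55.7% and 35.9%. The median log2 ratio of the list was -0.05, and 3 genes were at least 1.5-fold lower, beside 6.37% of all named loci above 1 FPKM. These 3 were *Ddit4*, a stress-induced inhibitor of mTOR, at 38.2 FPKM in WT and 20.6 FPKM in KO, *Egln3*, an oxygen sensor that is itself induced by low oxygen, at 8.01 and 4.38 FPKM, and *Pdk1*, a brake on pyruvate oxidation, at 17.3 and 11.4 FPKM. *Hif1a*, which encodes an activator of *Vegfa* in low oxygen, was higher, at 25.1 and 36.6 FPKM, and its relative *Epas1* was at 66.0 and 58.9 FPKM. *Ldha* and *Pgk1*, glycolytic targets of these factors, differed little, with *Ldha* at 338 and 329 FPKM and *Pgk1* at 87.9 and 79.8 FPKM.

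Secreted modulators of vessel growth included larger differences than the 10 genes. Of 14 above 1 FPKM, 3 were at least 1.5-fold higher and 1 at least 1.5-fold lower, with a median log2 ratio of 0.20. The shares of all named loci above 1 FPKM were 5.53% and 6.37%. *Thbs1*, thrombospondin 1, an inhibitor of vessel growth, was at 20.2 FPKM in WT and 48.9 FPKM in KO. *Vash1*, a feedback inhibitor made by endothelial cells, was at 3.58 and 7.12 FPKM, and *Adamts1*, a protease that can bind VEGFA, was at 11.7 and 19.0 FPKM. *Col18a1*, the collagen that gives endostatin, was at 61.8 and 37.9 FPKM, and its locus carries the same failed mark as that of *Vegfa*. *Angptl4*, the most abundant of the list, was at 175 and 197 FPKM.

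**Figure D4:**
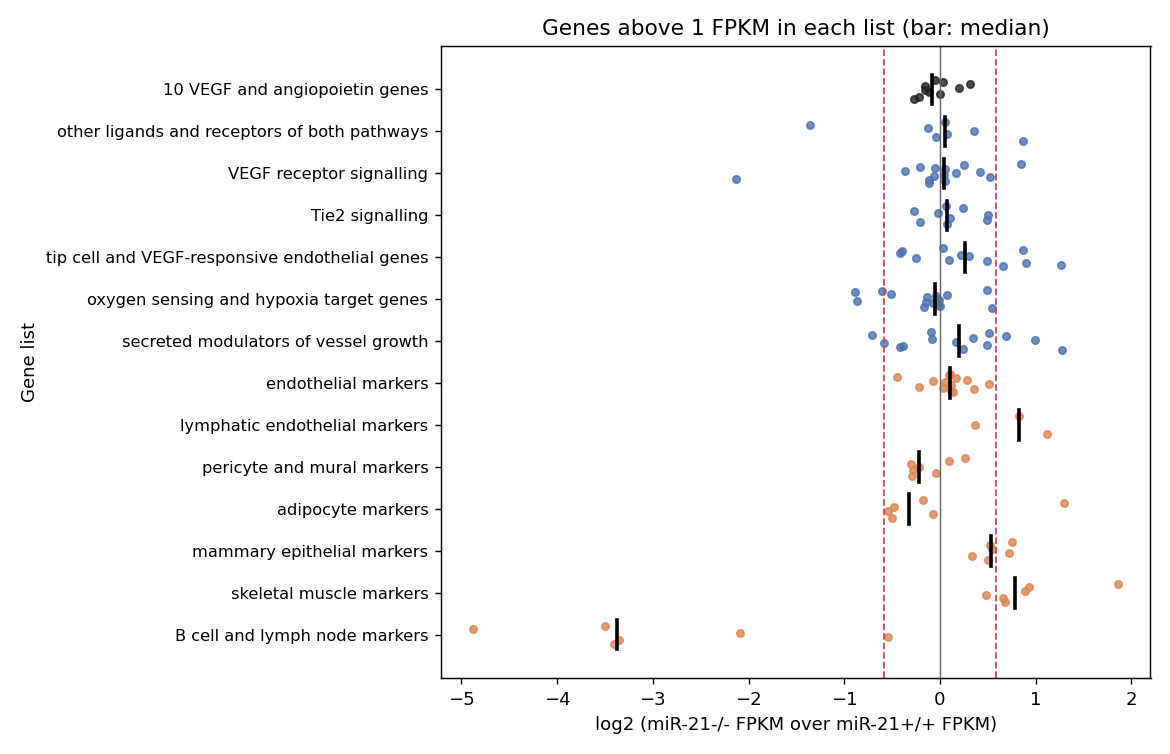
Log2 ratio of KO over WT (horizontal axis) for the 10 genes (black), for 6 pathway lists (blue) and for 7 cell type marker lists (orange), each point a gene above 1 FPKM, with a bar at the median and dashed lines at 1.5-fold. The 10 genes run from -0.27 to 0.32, and the median size of their log2 ratio, 0.16, is near the 0.15 of all named loci above 1 FPKM. The B cell and lymph node markers lie farthest from 0, with a median of -3.38.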

How the data were processed

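Per the labels and the study's methods, the authors made poly(A) libraries, read them from a single end on an Illumina HiSeq, used TopHat to map the reads to mm9 and Cufflinks to estimate FPKM, CASAVA also being named in the submitters' processing notes. Program versions, the annotation and the normalization options are not given in the sources used here. The deposited table holds 1 FPKM value per genotype (2 mice combined), a status, and the authors' own comparison (fold changes, test statistics, p-values and q-values), which was not used.

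Log2 ratios of the FPKM columns were computed without a pseudocount. With 1 value per genotype no test across mice was run, and differences were read against the share of named loci past the same fold. A gene with several rows was taken at the row with the highest mean. Low FPKM values showed no steps of whole reads. Genes named from the lists are those past 1.5-fold and a most abundant gene of each pathway list. *Tie1*, *Nrp2*, *Ptprb*, *Foxo1*, *Hif1a*, *Epas1*, *Pgk1*, *Glycam1*, *Mcph1* and the markers given by value were named for their role or after their values were seen. The 10 genes, the lists and the limits were chosen with earlier results of these data known. Seed matches were sought in GENCODE vM1 coding transcripts and checked against mm9, after the fold counts and the match search had been tested on simulated data. In all, 8295 annotated gene starts equalled a deposited start plus 1 and 477 the start as printed, so gene coordinates are those of the annotation, counting from 1. Python 3.11.15, numpy 2.4.6, pandas 2.3.3, pysam 0.24.0 and matplotlib 3.10.9 were used. Alternatives were other scalings, pseudocounts, folds, FPKM minimums and row choices.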

Additional observations from a re-analysis of the deposited data

How the results depend on the processing

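No paired analysis was possible because FPKM values of single mice were not analysed here, and no mouse could be left out in turn. Precision at low FPKM is not known, since the table carries no read counts.
The median log2 ratio of the 10 genes stayed within 0.1 of -0.08 under every alternative except scaling KO to the WT sum over all loci, which lowered every log2 ratio by 0.63 and gave -0.71, with 9 genes at least 20% lower. Under that scaling 1.45% of named loci above 5 FPKM were at least 25% higher and 91.1% at least 20% lower. With scaling over named loci the median was 0.02, 1 gene (*Angpt1*) was at least 25% higher, as were 12.4% of named loci above 5 FPKM, and 7.54% of them were at least 20% lower. Centring on the median of named loci, which raised every log2 ratio by 0.03, also put 1 gene, *Angpt1*, past 25%, with 9.39% of named loci. At 1.2-fold, chosen after seeing the data, 1 gene was higher and 1 lower. At 1.5-fold and at 2-fold, 0 genes passed in either direction. With no FPKM minimum, 15.2% of named loci were at least 25% higher and 17.9% at least 20% lower. Leaving out *Angpt2* or *Vegfa*, both chosen after seeing the data, kept the median within 0.1. Relative to the adipocyte sum, leaving out each of the 6 markers in turn, added after seeing the data, gave log2 ratios of 0.10 to 0.19 for *Vegfa* and 0.15 to 0.24 for *Vegfb*. Relative to the endothelial sum, leaving out each of the 14 markers in turn gave -0.32 to -0.22 for *Kdr*, -0.27 to -0.17 for *Flt1*, -0.21 to -0.12 for *Tek* and 0.03 to 0.13 for *Flt4*.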
